A study of Mus musculus with 18 samples.

Results

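Splenic CD4 T cells cultured with an anti-Ox40 antibody were compared between a high dose of anti-CD3/CD28 beads and no beads. The comparison used 6 of the 18 libraries of the series, 3 at each bead dose, chosen by the antibody and the bead dose in their labels. It covered 13075 of the 36528 entries of the expression table, those that reached an nRPKM of 1 in 3 or more libraries of the series. An nRPKM scales a gene's reads by its length and by the size of the library, and then by a step that the authors added to make libraries comparable. The cells came from female NZB/W F1 mice, the hybrid of NZB and NZW mice that develops a lupus-like disease, aged 21 to 27 weeks and with 30 to 100 mg/dL of protein in the urine. CD4 T cells were enriched with an isolation kit, so RNA of the other spleen cells could remain, and the medium of every well held IL-2 at 10 U/mL. Both groups received the anti-Ox40 antibody (IgG1, 25 µg/mL) for 48 hours, with 0 beads per cell or with 1 bead per cell. A parallel arm, Control Ig, received an isotype IgG1 at the same concentration at the same bead doses, and a low dose of 0.1 bead per cell was also cultured. Neither group therefore lacked antibody or IL-2, and no culture without them was analysed here.

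The comparison asks which genes follow stimulation of the T cell receptor and CD28 while Ox40 is bound by antibody. Resting CD4 T cells are kept small and out of the cell cycle by factors such as KLF2, and they depend on IL-7. Signals from CD3 and CD28 act through NFAT, AP-1 and NF-kB, after which the cells put the high-affinity IL-2 receptor on their surface, grow under MYC and mTORC1, switch to glycolysis and divide. Ox40, the product of Tnfrsf4, is a receptor of the TNF receptor family that activated and regulatory T cells carry. It signals through TRAF adaptors to NF-kB and is known for supporting survival and effector cytokines, IL-9 among them.

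The 6 libraries separated by bead dose. Pearson correlations across genes were 0.990 to 0.995 within a dose and 0.806 to 0.831 between doses. An nRPKM of 1 over 1 kb stood for 26.4 to 34.9 reads without beads and for 32.5 to 43.8 reads with high beads. The sum of all nRPKM values rose from a range of 273498 to 279884 to one of 343376 to 348466, and genes at or above an nRPKM of 1 numbered 12146 to 12261 and 11763 to 11803. Changes below are on the scale of log2(nRPKM + 1) and carry a standard error (SE). They come from a limma model of all 18 libraries with n = 3 in each group, and a gene was called at an adjusted p under 0.05. Whether the replicates were separate mice or cultures is not in the labels, and the p-values cover only the spread among the libraries. In bulk RNA, fewer cells of a type and less RNA per cell cannot be told apart.

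At high beads 11052 of the 13075 genes were called (84.5%), of which 5916 were higher (45.2%) and 5136 lower (39.3%). A change this common makes the plain call a weak yardstick, so a limma test against a threshold of 2-fold was added. It was passed by 2577 genes (19.7%), 1557 of them higher (11.9%) and 1020 lower (7.8%), and these genes are called past 2-fold below. Counts in the gene lists below are to be set beside these shares. The 3 and 3 libraries did not overlap for 11144 genes (85.2%). The median change over all genes was 0.06, while 36 genes past 2-fold rose by more than 4 and 11 fell by more than 4 on the log2 scale.

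**Figure D1:**
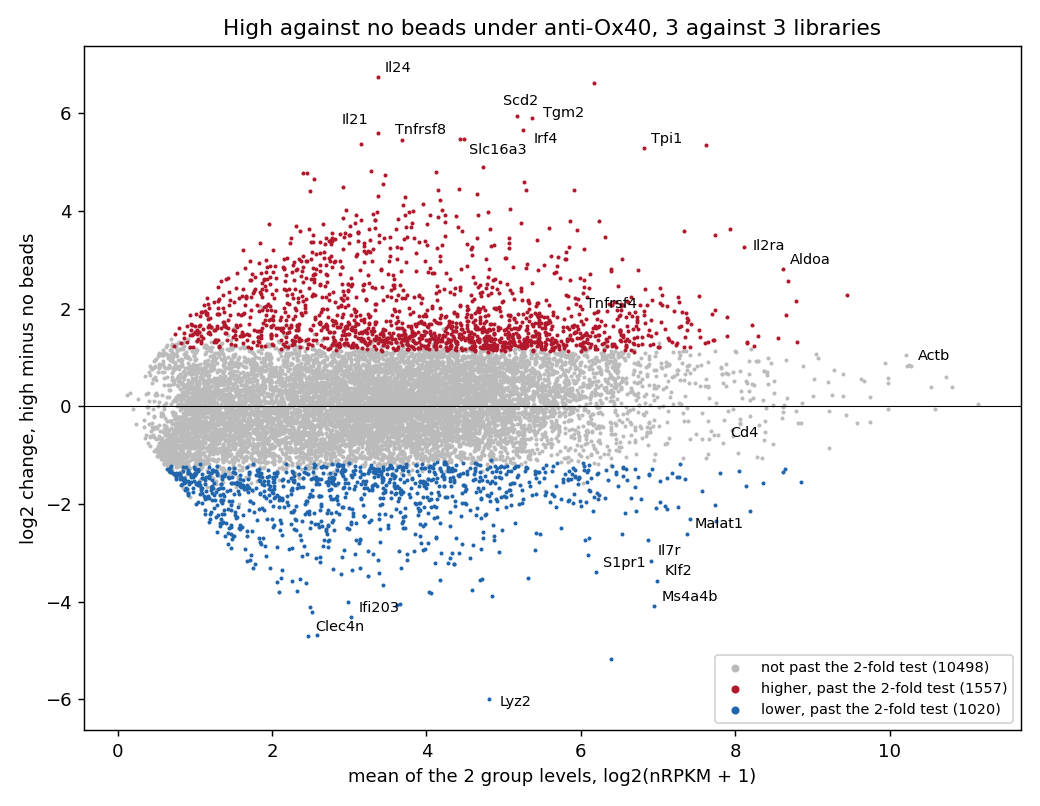
Log2 change of each tested gene with high beads (vertical axis) against the mean of its group levels as log2(nRPKM + 1) (horizontal axis). Genes past 2-fold are coloured by direction. Rises past 2-fold (1557) outnumber falls (1020), and Il24 and Lyz2 lie at the top and the bottom of the named genes.

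The largest rises were of cytokine genes, an activation receptor and enzymes of metabolism. Il24, a cytokine of the IL-10 family made by Th2 cells, was listed at 0, 0 and 0 without beads and read 98.4, 107 and 112 with high beads (log2 change 6.74, SE 0.22, adjusted p = 8.17e-14). Since it was listed at 0 in all 3 libraries without beads, no fold is given. Il21, whose product drives B cell help, went from 0.556, 0.562 and 0.362 to 74.4, 70.6 and 67.2 (log2 change 5.59, SE 0.18). Il13, a Th2 cytokine gene, went from 0.309, 0.345 and 0.47 to 47.7, 59 and 62.6 (5.38, SE 0.23). None of these 3 genes overlapped between the doses, and the levels without beads lay below 1 throughout.

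Scd2 (chromosome 19, 44293676 to 44306864 of GRCm38), a stearoyl-CoA desaturase that makes monounsaturated fatty acids, read 3.39, 3.36 and 4.13 without beads and 276, 266 and 307 with high beads. Its mean rose 77.9-fold (log2 change 5.94, SE 0.09, adjusted p = 6.96e-17). Tgm2, a transglutaminase, read 4.19, 4.02 and 4.84 without beads and 298, 279 and 378 with high beads (5.89, SE 0.17). Tnfrsf8, which encodes the TNF receptor family member CD30, went from 2.25, 2.29 and 2.54 to 151, 138 and 156 (5.47, SE 0.14). Within each dose these genes varied little next to the step between doses. Egln3, an oxygen-sensing prolyl hydroxylase, rose by 4.9, Pla2g12a, a secreted phospholipase, by 4.8, and Mgarp, a mitochondrial protein gene, by 4.77. Cyp11a1, the enzyme that begins steroid synthesis and is known in Th2 cells, read 0.936, 0.793 and 0.64 without beads and 31.5, 53.8 and 70.8 with high beads, with a wide spread among the high-bead libraries.

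Scgb1a1, a secretory gene of the airway, belongs to the 15 largest rises but not to T cell biology. It was listed at 0, 0 and 0 without beads and read 19.5, 35.9 and 26 with high beads (4.77, SE 0.87, adjusted p = 8.5e-05), and 41.4, 26.5 and 148 at the low dose. The low-bead libraries spread widely and did not lie between those of the other doses. Of 12 lung epithelium markers, 9 were listed at 0 in all 3 libraries without beads and none in all 3 with high beads. Of the 7 that were tested, 6 rose, 2 of them past 2-fold, and 1 fell, with changes from -1.24 to 4.77. The summed nRPKM of the list was 7.41, 9.09 and 8.15 without beads and 32.5, 58.6 and 42.7 with high beads. Scgb1a1 made up most of the sum in each high-bead library.

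The largest falls were a mixture of T cell and myeloid genes. Ms4a4b, a membrane protein of naive and Th1 cells, read 505, 466 and 449.5 without beads and 16.6, 56 and 20.6 with high beads (log2 change -4.09, SE 0.32). High-bead replicate 2 kept the highest level. Cd7, a T cell surface protein, read 44.2, 54.3 and 46.7 without beads and 1.25, 3.96 and 1.4 with high beads (-4.04, SE 0.25), with the same library on top. Lpar6, a receptor for lysophosphatidic acid, went from 50.2, 48.2 and 48.7 to 1.62, 2.44 and 1.93 (-4.07). Il18r1, the IL-18 receptor chain, read 65, 67.4 and 52.7 without beads and 3.32, 3.97 and 2.99 with high beads (-3.82, SE 0.14), and Pde2a, which breaks down cyclic nucleotides, changed by -3.87. Ifi203, Mndal and Pydc3, interferon-inducible genes of the PYHIN and pyrin families, changed by -4.31, -4.0 and -4.12. Cpne7, a copine, changed by -4.68, Scg5, a secretory chaperone gene, by -3.79, and the imprinted RNA gene Peg13 by -3.67.

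Other large falls were of genes that myeloid cells express. Lyz2, the lysozyme of macrophages and neutrophils, read 185, 217 and 264 without beads and 1.94, 3.56 and 2.08 with high beads (log2 change -5.99, SE 0.32), the largest named fall. The C-type lectin Clec4n (also known as Dectin-2) read 21.7, 29.5 and 31.2 without beads and 0.073, 0.149 and 0.021 with high beads (-4.7). Tyrobp, an adaptor of myeloid and NK receptors, changed by -3.61, and Mpeg1, the macrophage perforin, by -3.6. All 17 tested myeloid markers fell, 13 of them past 2-fold, with a median of -1.84, and their summed nRPKM was 382, 429.8 and 503 without beads and 38.9, 45.4 and 41.1 with high beads. Platelet marker sums were 81.9, 79.8 and 109 and 22.6, 31.3 and 28.3. The part that these other cells have in the fall of genes they share with T cells was not tested.

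**Figure D2:**
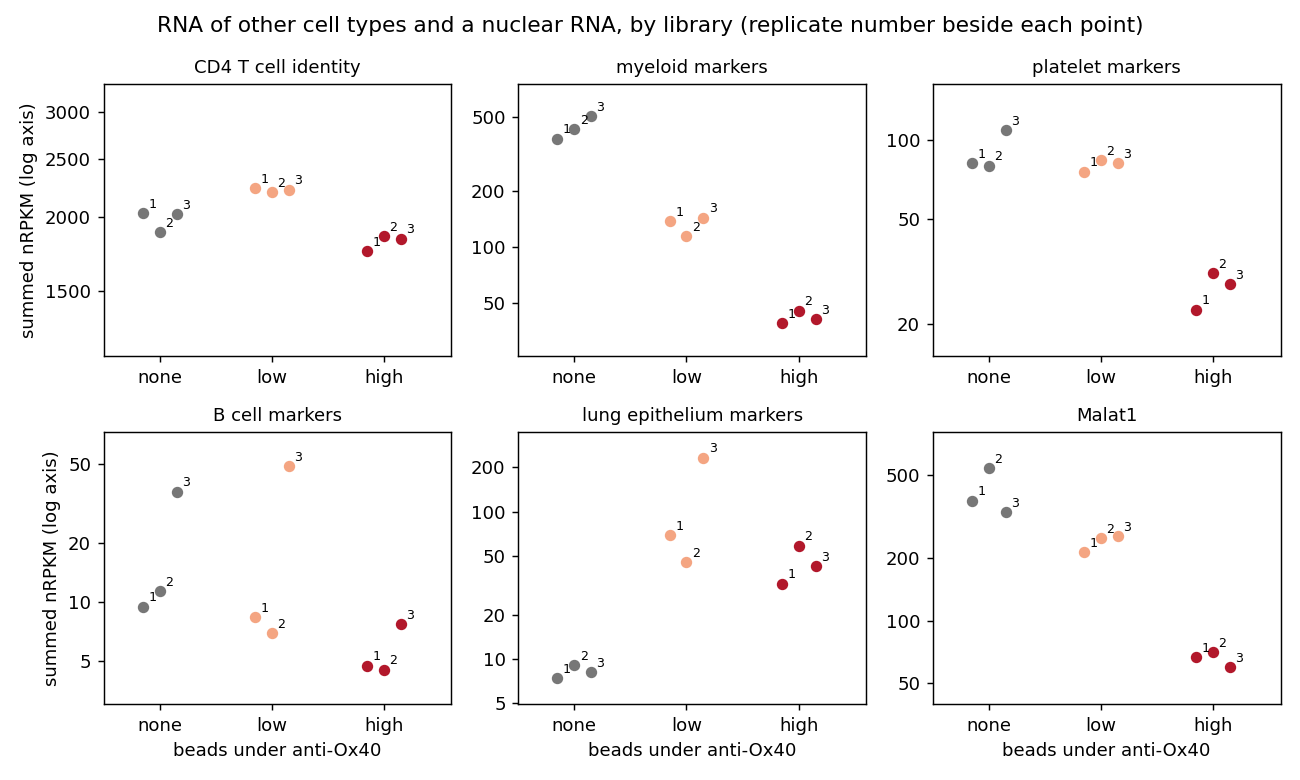
Summed nRPKM of marker lists for CD4 T cells, myeloid cells, platelets, B cells and lung epithelium, and the nRPKM of Malat1, in each library of the anti-Ox40 arm (points with replicate numbers, log vertical axes) by bead dose. Myeloid sums lie at 382 to 503 without beads and at 38.9 to 45.4 with high beads. Lung sums, mostly Scgb1a1 with high beads, move the other way.

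The label of the cells was set beside their markers. Cd4 read 313, 281 and 296 without beads and 179, 174 and 175 with high beads (-0.75, SE 0.05), and of 10 CD4 T cell identity genes 2 rose and 7 fell, none past 2-fold. Cd8a was under the level for testing, with an nRPKM of 0.039, 0.087 and 0.433 without beads and 0.012, 0.034 and 0.314 with high beads. The 2 CD8 T cell markers together summed to 4.91, 5.28 and 6.95 without beads and 4.36, 4.54 and 4.71 with high beads. The 1 of them that was tested fell (-0.26). By these sums some CD8 marker RNA was present in each of these libraries, little of it from Cd8a. B cell marker sums were 9.46, 11.3 and 36.2 and 4.73, 4.53 and 7.72, and replicate 3 had the highest sum in each group. Malat1, a nuclear RNA, read 375, 536 and 332 and 66.7, 70.8 and 59.6. The list of nuclear retained RNAs did not fall as a whole, with 3 rises and 3 falls among 7 tested and a median of -0.03. Actb changed by 0.83 (not called under quantile normalization), and Gapdh, which may share reads with near-identical copies, by 1.84 at levels under 10.

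High-bead replicate 2 kept the highest of the 3 high-bead values for 519 of the 1020 genes that fell past 2-fold (50.9%) and for 12 of the 15 largest named falls. High-bead replicate 1 had the lowest value for 500 of the 1020.

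Several receptors that mark activation rose. Il2ra (chromosome 2, 11642792 to 11693194), the high-affinity IL-2 receptor chain, read 89.5, 80.5 and 94.1 without beads and 865, 807 and 895 with high beads (log2 change 3.27, SE 0.07, adjusted p = 2.13e-15, a 9.72-fold higher mean). Tnfrsf4 (chromosome 4, 156013595 to 156016613), which encodes Ox40 itself, read 32.2, 30.4 and 32 without beads and 126, 115 and 119 with high beads (1.89, SE 0.08, adjusted p = 9.9e-13). In both genes the groups were far apart and the 3 libraries of a dose were close together. Tfrc, the transferrin receptor, went from 17.1, 17.9 and 17.8 to 191, 171 and 172 (3.27). The costimulatory receptor gene Icos read 63.5, 57.4 and 53.1 without beads and 203, 224 and 216 with high beads (1.87), and Tnfrsf18, which encodes GITR, read 125, 111 and 139 without beads and 459, 426 and 445 with high beads (1.82). Cd69, an early activation marker, rose less, from 7.19, 7.9 and 7.51 to 23.7, 26.6 and 19.2 (1.49, SE 0.09).

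Of 18 surface activation and costimulation genes, 11 rose and 6 fell, 8 and 3 of them past 2-fold, with a median of 1.35. The 3 falls past 2-fold were of Il7r, Cd40lg and Cd27. Il7r, the IL-7 receptor chain of resting T cells, read 347, 400.2 and 325 without beads and 33.5, 40.1 and 44 with high beads (-3.16, SE 0.11). Cd40lg, which encodes the CD40 ligand through which T cells help B cells, read 72.6, 75.3 and 64.2 without beads and 8.73, 9.22 and 7.62 with high beads (-2.91). Cd27, a costimulatory receptor of the TNF receptor family, read 158, 164 and 165 without beads and 51.9, 57.3 and 59.8 with high beads (-1.51).

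Within the Ox40 and TNF family, members moved both ways, as did all genes tested (45.2% higher and 39.3% lower). Of 26 tested genes out of 28, 10 rose and 12 fell, 5 and 5 past 2-fold, with a median of -0.13. Tnfsf4, the gene of the Ox40 ligand, stayed low and rose from 0.961, 1.13 and 0.846 to 4.93, 3.93 and 3.52 (1.37, SE 0.11, adjusted p = 7.32e-09). Lta, which encodes lymphotoxin alpha, read 37.3, 42.4 and 35.7 without beads and 162, 146 and 104 with high beads (1.79), while Ltb, its partner, read 601, 631 and 639.9 without beads and 247, 275 and 247 with high beads (-1.28). The adaptor gene Traf5 changed by -1.77, the receptor gene Tnfrsf26 by -1.74, the death ligand gene Fasl by -1.57 and the adaptor gene Traf1 by -0.98. Traf2 (-0.08, adjusted p = 0.253) and Traf3 (-0.09, adjusted p = 0.0964) were not called.

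Of 22 genes of NF-kB subunits and feedback, 12 rose and 9 fell, but only 1 and 2 passed 2-fold, with a median of 0.17. Over all genes tested, 45.2% were higher and 39.3% lower. Bcl3, a nuclear partner of the p50 and p52 subunits, read 11.8, 12.3 and 12 without beads and 89.1, 91.6 and 96.8 with high beads (2.85). Nfkb2 and Nfkb1, the genes of those subunits, rose by 1.28 and 1.07, and the inhibitor gene Nfkbia by 0.96. Nfkbiz and Ikbkb, which encode a nuclear cofactor and a kinase of the pathway, fell by 1.37 and 1.26. Nfkbie was not called (-0.15, adjusted p = 0.0676).

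Genes of the receptor complex and its proximal signalling mostly fell by little. Of 25 genes of the T cell receptor complex and proximal signalling, 8 rose, 15 fell and 2 fell past 2-fold, with a median of -0.23. Txk, a TEC-family kinase of resting T cells, read 48.4, 52.8 and 49.8 without beads and 4.49, 7.26 and 4.78 with high beads (-3.0, SE 0.13). Ptpn22, a phosphatase that restrains receptor signals, changed by -1.22, and the kinase gene Fyn by -0.97. Themis and Lcp2, which encode a signalling regulator and the adaptor SLP-76, rose by 1.08 and 0.74. Sh2d2a (-0.00, adjusted p = 0.985) and Cd5 (-0.10, adjusted p = 0.206) were not called.

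**Figure D3:**
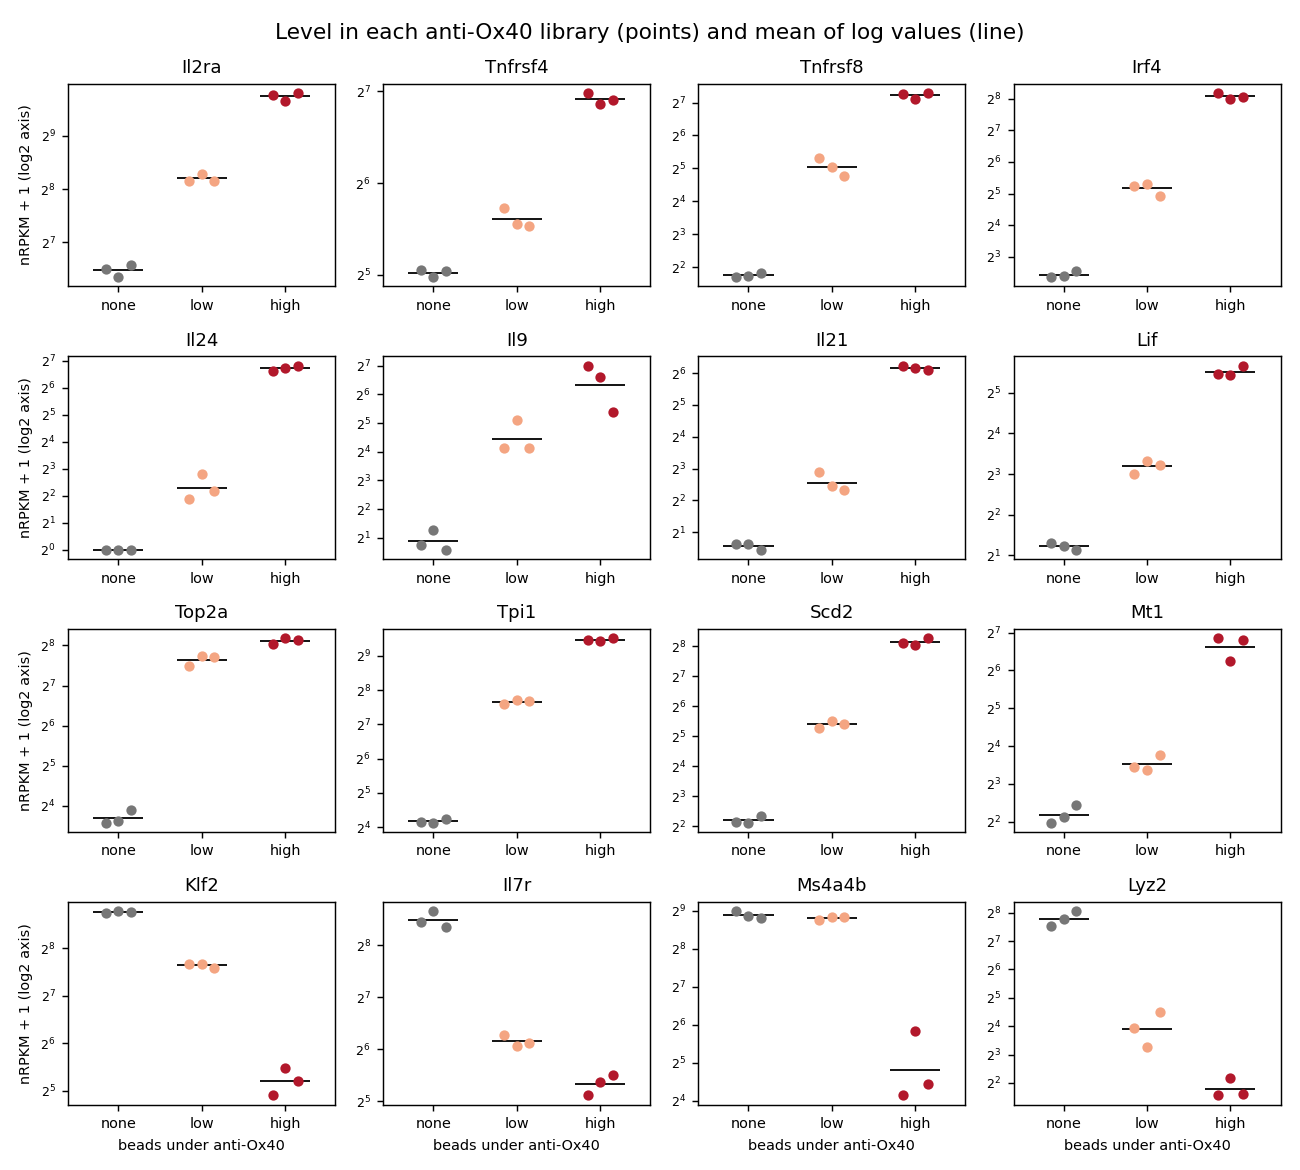
Level of named genes as nRPKM + 1 (log2 vertical axes) in each library of the anti-Ox40 arm (points, 3 per dose) at 0 (none), 0.1 (low) and 1 (high) bead per cell, with a line at the mean of log values. Il2ra, Tnfrsf4, Tnfrsf8 and Irf4 rise to the high dose, and Klf2, Il7r, Ms4a4b and Lyz2 fall.

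Several transcription factors of effector differentiation rose. Irf4 (chromosome 13, 30749233 to 30766981), whose level follows the strength of receptor signals, read 4.11, 4.24 and 4.77 without beads and 291, 252 and 267 with high beads (log2 change 5.66, SE 0.12, adjusted p = 9.37e-16). Its AP-1 partners Batf and Batf3 read 32.1, 30.1 and 32 and 1.06, 0.246 and 0.533 without beads. With high beads they read 256, 258 and 272 (3.02) and 38.7, 33.5 and 31.7 (4.49). All 3 factors were separate between the doses, as were 85.2% of all genes tested, Batf3 from levels near or under 1. Irf8, a relative of Irf4, rose by 2.73. Hif1a, the oxygen-regulated subunit of HIF-1, read 80.1, 65.1 and 72.9 without beads and 336, 308 and 325 with high beads (2.14), and Nr4a1, an early gene of receptor signalling, rose by 2.13.

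Of 34 activation transcription factors, 23 rose and 10 fell, 15 and 5 past 2-fold (median 0.89). Among the falls, Ikzf2 (Helios) changed by -2.48, Id3 by -2.24 and Bcl6, the factor of follicular helper cells, by -1.96. Foxp3, the factor of regulatory T cells, read 100.02, 82.1 and 98 without beads and 31.7, 21.3 and 24.5 with high beads (-1.83, SE 0.20, adjusted p = 2.4e-07). Jund was not called (0.04, adjusted p = 0.695).

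Cytokine genes rose from low levels. Of 30 tested genes out of 38, 18 rose and 5 fell, 12 and 4 past 2-fold, with a median of 0.94. Il9 (chromosome 13, 56479277 to 56482257), a cytokine for mast cells and mucosa, read 0.694, 1.43 and 0.494 without beads and 127, 95.3 and 41 with high beads (log2 change 5.45, SE 0.41, adjusted p = 2.78e-09). High-bead replicate 3 lay at 41.0, under the other replicates of that dose and still far above every library without beads. Lif, a cytokine of the IL-6 family, read 1.48, 1.33 and 1.19 without beads and 43, 42.4 and 50.01 with high beads (4.3, SE 0.09). Gzmb, the gene of granzyme B, read 9.65, 7.64 and 10.1 without beads and 119, 149 and 139.97 with high beads (3.76). Il2 stayed low, at 0.06, 0.303 and 0.159 without beads and 2.02, 2.63 and 0.701 with high beads (1.18, SE 0.22, adjusted p = 0.000103), and did not pass 2-fold.

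Other cytokine genes fell or were not called. Xcl1, the chemokine lymphotactin, went from 6.1, 5.99 and 5.35 to 0.136, 0.061 and 0.153 (-2.61), and Il16, which encodes a ligand of CD4, changed by -1.5. Prf1, the gene of perforin, changed by -1.38. Ifng overlapped between the doses, at 2.96, 2.81 and 1.75 without beads and 1.89, 2.04 and 0.678 with high beads (-0.50, adjusted p = 0.0614). Tnf (-0.10, adjusted p = 0.0864) and the chemokine gene Ccl22 (-0.55, adjusted p = 0.228) were not called either.

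Th2 genes had the highest median of the helper lists. Of 16 tested genes, 14 rose and 1 fell, 12 of them rising past 2-fold, with a median of 2.95. Ccr8, a chemokine receptor of Th2 and regulatory cells, read 1.46, 0.94 and 1.05 without beads and 57.4, 49.6 and 60.1 with high beads (4.72), and Nfil3, a bZIP factor, rose by 3.91. Il1rl1, which encodes the IL-33 receptor, was not called (0.02, adjusted p = 0.908). Members outside the naming rule, picked after their values were seen, were Gata3, the factor of Th2 cells, at 27.8, 25.3 and 29.4 without beads and 104, 109 and 128 with high beads (2.01), Il4 at 1.9, 2.8 and 2.11 without beads and 29.1, 31.9 and 26.6 with high beads (3.21) and Il5, which stayed low (1.92).

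The other helper lists held rises and falls, as did all genes tested (45.2% higher and 39.3% lower). Of 22 Th1 and cytotoxic genes, 10 rose and 8 fell (median -0.16, but 0.070 without high-bead replicate 3). Il12rb1 and Il12rb2, the chains of the IL-12 receptor, and the granzyme gene Gzma rose by 3.26, 2.76 and 3.03, while Il18rap and Stat4 fell by 2.87 and 2.03. Of 11 Th17 genes, 3 rose and 8 fell (median -0.90), with the homing receptor gene Ccr6 at -1.75 and the nuclear receptor gene Rora at -1.57. Of 19 Tfh genes, 8 rose and 10 fell (median -0.28). Among these Il21 and Icos rose, and Cxcr5, the receptor that leads cells into the B cell follicle, changed by -1.58, and Tox by -2.5.

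Of 21 Treg genes, 13 rose and 7 fell, 6 and 4 past 2-fold (median 0.48). Il2ra, Tnfrsf4 and Tnfrsf18 are members that other activated helper cells also express, and Ccr8 is one that Th2 cells also express. Il10, an inhibitory cytokine gene, read 1.45, 0.759 and 1.62 without beads and 13.5, 10.8 and 16.4 with high beads (2.68), and Ebi3, a subunit of IL-27 and IL-35, rose by 2.48. Nt5e, which encodes the ectoenzyme CD73, changed by -3.31 and Nrp1 by -2.61, beside the falls of Foxp3 and Ikzf2 given above.

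Of 10 tested inhibitory receptor and ligand genes out of 15, 6 rose and 3 fell (median 0.37). Lag3, a receptor for MHC class II, read 9.15, 5.07 and 6.44 without beads and 72.7, 58.8 and 81.7 with high beads (3.21). Pdcd1, which encodes PD-1, moved the other way, from 33.5, 30.4 and 34.6 to 7.89, 6.04 and 7.64 (-2.05), and its ligand gene Cd274 was not called (-0.04, adjusted p = 0.626). Ctla4, an inhibitor of CD28 costimulation, rose by 0.24 but changed by -0.22 under quantile normalization, and its call was also lost under median centring, with no filter, without replicate 3 of all groups and in 4 of 6 fits without 1 library of the compared groups (adjusted p 0.0251 to 0.159 over the 6).

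Receptors for cytokines moved both ways, as did all genes tested (45.2% higher and 39.3% lower). Of 34 genes of cytokine receptors and STAT5 feedback, 18 rose and 14 fell, 12 and 7 past 2-fold (median 0.33). Il4ra, the IL-4 receptor chain, read 56.1, 55.1 and 57.1 without beads and 238, 269 and 266 with high beads (2.18). Il21r rose by 2.42, and Il1r2, a decoy receptor for IL-1, by 2.51.

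Genes of the resting state fell. Of 34 naive and quiescence genes, 28 fell and 4 rose, 17 and 2 past 2-fold, with a median of -1.21. Klf2 (chromosome 8, 72319062 to 72321654), the factor that keeps T cells quiescent and recirculating, read 427, 439.5 and 437 without beads and 28.8, 43.4 and 36 with high beads (log2 change -3.57, SE 0.13, adjusted p = 3.8e-13). Its target S1pr1, the receptor by which T cells leave lymphoid organs, read 222, 238 and 246 without beads and 17.9, 27.1 and 20.4 with high beads (-3.39). In both genes high-bead replicate 2 was the highest of its group. Every high-bead library lay below every library without beads, and 85.2% of all genes tested likewise had no overlap. Klf3, Pik3ip1, which restrains PI3 kinase, and Btg2, an antiproliferative gene, fell by 2.74, 2.7 and 2.62.

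Exceptions in that list were Satb1, a chromatin organizer of T cells, at 49, 59.1 and 53.8 without beads and 158, 176 and 177 with high beads (1.64), the CDK inhibitor gene Cdkn2d (1.61), the GTPase gene Gimap7 (0.81) and Ccr7, the lymph node homing receptor, at 107, 120.2 and 131 without beads and 179, 215 and 174 with high beads (0.66, not called under quantile normalization). Rbl2, a pocket protein of quiescent cells, was not called (-0.09, adjusted p = 0.184). Of 22 chemokine receptor and homing genes, 16 fell and 4 rose (median -1.03). Itga4, the alpha 4 integrin chain, went from 131, 111 and 108 to 14.1, 14.4 and 14.1 (-2.95), Ccr9, the receptor for gut homing, changed by -2.44 and Cxcr3 by -1.97, while Ccr4 rose by 3.73. Itgal, a chain of the integrin LFA-1, was not called (0.07, adjusted p = 0.177).

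**Figure D4:**
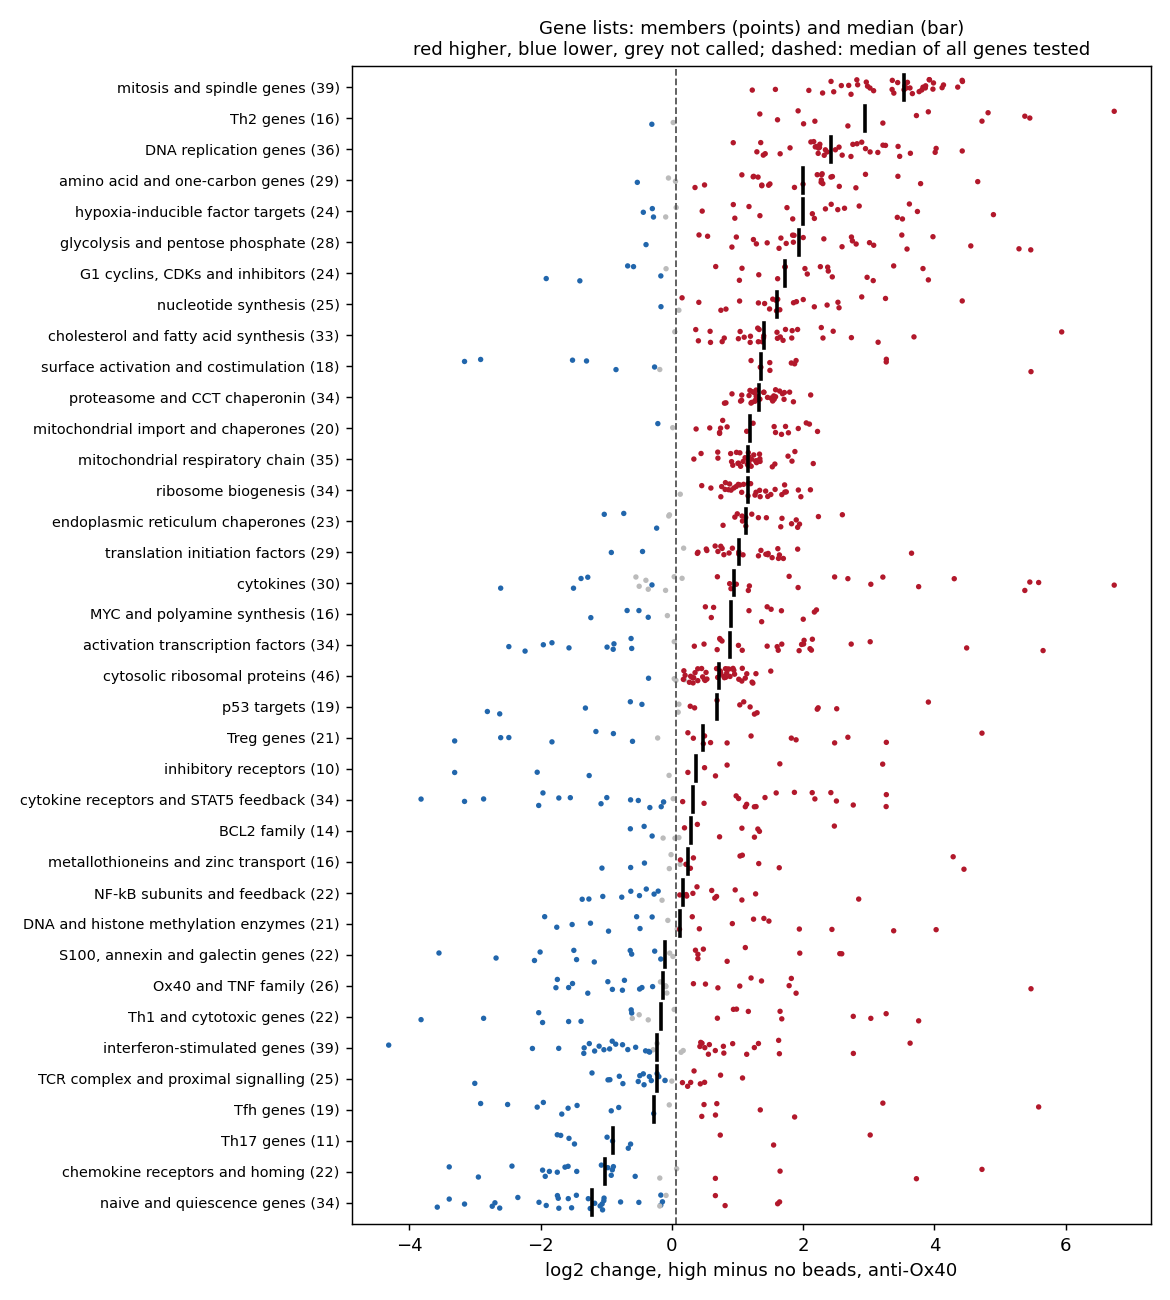
Log2 change with high beads under anti-Ox40 of each tested member (points) of the 37 theme lists (rows, with the number tested), coloured by direction where called, with a bar at the list's median and a dashed line at the median of all genes (0.06). Mitosis genes lie highest (median 3.54), and naive genes lie lowest (median -1.21).

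Division genes rose in every member tested. All 39 mitosis and spindle genes rose, all past 2-fold, with a median of 3.54 and a range from 1.22 to 4.43. Top2a, the topoisomerase that untangles replicated DNA, read 10.9, 11.3 and 13.8 without beads and 261, 288 and 283 with high beads (log2 change 4.42, SE 0.10, adjusted p = 1.71e-15). Aurkb, a kinase of the chromosomal passenger complex, read 2.58, 2.36 and 3.63 without beads and 78.1, 82.3 and 83.2 with high beads (4.43). Ube2c, Tpx2 and Bub1b, which act in cyclin breakdown, spindle assembly and the spindle checkpoint, rose by 4.35, 4.14 and 4.12. Mki67, a marker of cycling cells, read 6.62, 7.23 and 7.23 without beads and 91.4, 100.01 and 103 with high beads (3.63, SE 0.10). Each of Top2a, Aurkb and Mki67 was above 0 in every library without beads.

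The promoters of this list are shown by Top2a, whose 300 bases hold both words known from genes of this phase. Its promoter, from 250 bases before the start to 50 after it, lies at chr11:99024140-99024439 of GRCm38.p6 on the minus strand (RefSeq). In it 2 matches to TTTGAA, the core of the cell cycle homology region, and 6 matches to CCAAT, on either strand, are in capitals.
Top2a: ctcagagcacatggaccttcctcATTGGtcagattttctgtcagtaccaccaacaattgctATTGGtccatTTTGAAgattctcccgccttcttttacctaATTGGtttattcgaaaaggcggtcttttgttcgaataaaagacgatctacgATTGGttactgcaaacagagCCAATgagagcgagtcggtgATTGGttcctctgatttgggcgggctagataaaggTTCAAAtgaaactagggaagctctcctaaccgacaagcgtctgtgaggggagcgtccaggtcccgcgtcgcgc
TTTGAA, on either strand, was found in 25 of the 32 promoters on hand for the list (78.1%), in 14.2% of the 9195 promoters of tested genes and in 20.2% of the 27025 of all genes. CCAAT was found in 23 of the 32 (71.9%), against 43.0% and 41.1%. A match is a description of these letters and not evidence of binding.

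Of 36 DNA replication genes all rose, 35 past 2-fold, with a median of 2.43. Rrm2, the inducible subunit of ribonucleotide reductase, read 6.58, 7.33 and 8.55 without beads and 175, 181 and 185 with high beads (4.42). Uhrf1, which brings the maintenance methyltransferase to replicated DNA, read 3.06, 3.48 and 4.21 without beads and 73.9, 73.6 and 72.3 with high beads (4.03, SE 0.09). Mcm10, Cdc6 and Cdc45, which act at replication origins, rose by 4.01, 3.63 and 3.47. The least change in the list, of Gins4 (0.94), did not pass 2-fold and was picked after its value was seen.

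The Uhrf1 promoter (chr17:56303087-56303386, plus strand, GRCm38.p6, RefSeq) is shown for the E2F words TTCCCGC and TTTGGCG, with the 1 match on either strand in capitals.
Uhrf1: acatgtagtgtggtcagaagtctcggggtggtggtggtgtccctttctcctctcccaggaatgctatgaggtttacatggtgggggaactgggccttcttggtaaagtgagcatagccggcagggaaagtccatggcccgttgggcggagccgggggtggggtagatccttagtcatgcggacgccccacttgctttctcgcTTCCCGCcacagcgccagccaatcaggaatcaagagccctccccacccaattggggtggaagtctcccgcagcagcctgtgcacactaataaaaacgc
Either word was found in 19 of the 29 promoters on hand for the replication list (65.5%), against 12.7% of tested genes and 6.83% of all genes.

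Regulators of G1 followed. Of 24 G1 cyclins, CDKs and inhibitors, 18 rose and 5 fell, 15 and 2 past 2-fold (median 1.72). Cdkn1a, the inhibitor p21, rose with the cyclins, from 5.03, 5.63 and 6.09 to 113, 87.9 and 93.7 (3.91). E2f1 rose by 3.38, Ccne1, cyclin E1, by 2.97 and Cdk1, the mitotic kinase, by 3.83. Cdkn1b, the inhibitor p27 of resting cells, went from 111, 109 and 111 to 26.2, 29.5 and 30.2 (-1.91, SE 0.07), and the factor gene Myb changed by -1.4.

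Of 19 p53 targets, 12 rose and 5 fell (median 0.69), with Phlda3 and Sesn2 at 2.51 and 2.21 and Sesn1 at -2.81. Of 14 BCL2 family genes, 8 rose and 3 fell (median 0.29). Bcl2l1, the gene of the survival protein Bcl-xL, read 4.34, 4.34 and 4.37 without beads and 31.2, 29.5 and 25.9 with high beads (2.48), and Bcl2 rose by 1.31. Bak1 and Bax, which carry out apoptosis, rose by 1.33 and 1.26, Bcl2l11 (BIM) fell by 0.42, and Mcl1 was not called (0.05, adjusted p = 0.569).

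Glycolysis genes rose almost without exception. Of 28 genes of glycolysis and the pentose phosphate pathway, 27 rose and 1 fell, 23 rising past 2-fold, with a median of 1.93. Slc16a3 (chromosome 11, 120948484 to 120959000), the transporter that exports lactate, read 2.14, 2.17 and 2.47 without beads and 141, 137 and 152 with high beads (log2 change 5.47, SE 0.06, adjusted p = 1.95e-18). Hk2, the inducible hexokinase, read 1.01, 1.2 and 1.5 without beads and 53.5, 48.9 and 51.8 with high beads (4.55), and Ldha, which makes lactate, read 59.8, 61.6 and 65.4 without beads and 719, 715 and 712 with high beads (3.5, SE 0.07). The doses did not overlap in any of these 3 genes, as in 85.2% of all genes tested. Tpi1, triosephosphate isomerase, read 16.8, 16.6 and 17.8 without beads and 701, 687 and 724 with high beads (5.29), though it may share reads with a near-identical copy. Pkm, pyruvate kinase, and Aldoc, an aldolase, rose by 3.58 and 3.98, while Eno3, the muscle enolase, changed by -0.39.

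The Slc16a3 promoter (chr11:120948817-120949116, plus strand, GRCm38.p6, RefSeq) is shown for the core of the hypoxia response element, ACGTG, with 2 matches on either strand in capitals. This window lies inside the span given above for the gene, so it was not set on the first base of that span.
Slc16a3: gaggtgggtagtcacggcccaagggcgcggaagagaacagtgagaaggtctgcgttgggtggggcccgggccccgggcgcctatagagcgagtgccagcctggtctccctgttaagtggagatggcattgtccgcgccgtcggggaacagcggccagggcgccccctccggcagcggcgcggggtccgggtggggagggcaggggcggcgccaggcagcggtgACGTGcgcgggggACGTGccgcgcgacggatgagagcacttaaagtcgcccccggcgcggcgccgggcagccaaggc
ACGTG was found in 15 of the 27 promoters on hand for the glycolysis list (55.6%), against 29.8% of tested genes and 21.8% of all genes. It is contained in CACGTG, the E-box that MYC is known to bind, which was found in 7 of the 29 promoters of the ribosome biogenesis list (24.1%), 11.96% of tested genes and 8.09% of all genes.

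Of 24 targets of hypoxia-inducible factor, 19 rose and 3 fell, 16 rising past 2-fold (median 1.99). Egln3 led the list, and Bnip3, a mitophagy receptor, Ddit4, an inhibitor of mTORC1, and Vegfa, the angiogenic factor, rose by 3.74, 3.62 and 3.51. Ero1l, an oxidase of the endoplasmic reticulum, read 7.02, 6.56 and 6.39 without beads and 80.4, 74.6 and 91 with high beads (3.43). Egln2, Pfkfb4 and Pdk1 changed by -0.43, -0.30 and -0.28, the last not called without replicate 3 of all groups. Car9 (0.07, adjusted p = 0.508) and Kdm3a (-0.09, adjusted p = 0.078) were not called.

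Of 33 cholesterol and fatty acid synthesis genes, 32 rose and 0 fell, 23 rising past 2-fold (median 1.40). Beside Scd2, Scd1 and the desaturase gene Fads2 rose by 3.69 and 3.14. The cholesterol enzymes Cyp51, Sqle and Fdps rose by 2.73, 2.46 and 2.3. Elovl5, a fatty acid elongase, was not called (0.04, adjusted p = 0.632). TCACNCC, the core of the sterol response element, was in 3 of 24 promoters of the list (12.5%), 19.2% of tested genes and 17.6% of all genes.

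Amino acid and one-carbon genes, many of them targets of ATF4, rose in 26 of 29 cases and fell in 1, 23 rising past 2-fold (median 2.00). Cth (chromosome 3, 157894248 to 157925081), which makes cysteine from cystathionine, read 0.11, 0.176 and 0.187 without beads and 34, 25.1 and 26.4 with high beads (log2 change 4.66, SE 0.14, adjusted p = 3.13e-14). Psat1 of serine synthesis read 14.8, 13.9 and 15.3 without beads and 225, 214 and 207 with high beads (3.79), and Asns, asparagine synthetase, read 8.68, 9.17 and 9.75 without beads and 119, 101 and 111 with high beads (3.44). Cth started from levels under 1, and none of the 3 genes overlapped between the doses, as for 85.2% of all genes tested. Slc7a5, the transporter of large neutral amino acids, read 30.7, 30.2 and 31.3 without beads and 238, 213 and 212 with high beads (2.8). Bcat1 and Mthfd1l rose by 2.95 and 2.55. Slc7a11, the cystine transporter, changed by -0.53, and Trib3 (0.05, adjusted p = 0.32) and Slc38a2 (-0.05, adjusted p = 0.319) were not called.

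The Asns promoter (chr6:7693160-7693459, minus strand, GRCm38.p6, RefSeq) is shown for TGATGNA, the core of the ATF4 site, with the 1 match on either strand in capitals.
Asns: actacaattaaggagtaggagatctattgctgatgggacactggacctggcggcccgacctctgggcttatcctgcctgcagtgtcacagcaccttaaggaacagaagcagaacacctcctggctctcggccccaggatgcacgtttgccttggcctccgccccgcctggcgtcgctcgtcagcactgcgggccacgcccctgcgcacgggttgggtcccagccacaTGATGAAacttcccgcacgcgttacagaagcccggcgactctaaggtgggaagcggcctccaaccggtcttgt
TGATGNA was found in 10 of the 25 promoters on hand for the list (40.0%), against 8.62% of tested genes and 13.8% of all genes.

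Growth machinery rose with smaller changes. Of 16 MYC and polyamine genes, 11 rose and 4 fell (median 0.91). Myc itself (chromosome 15, 61985341 to 61990361) read 54.6, 52 and 57.2 without beads and 167, 148 and 139 with high beads (log2 change 1.45, SE 0.07, adjusted p = 1.21e-11). Nme1, a nucleoside diphosphate kinase, Srm, which makes spermidine, Cad, which begins pyrimidine synthesis, and Odc1, which begins polyamine synthesis, rose by 2.2, 2.17, 2.0 and 1.67, and Mxd4, an antagonist of MYC, changed by -1.23. Of 25 nucleotide synthesis genes, 23 rose and 1 fell (median 1.59), with thymidine kinase, Tk1, at 3.25 and Rrm1 at 2.89.

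Of 34 ribosome biogenesis genes, 33 rose and none fell, 15 past 2-fold (median 1.16). Ncl, the gene of nucleolin, read 73.2, 67.6 and 72.9 without beads and 254, 239 and 217 with high beads (1.72), and Npm1, Nhp2, Gar1 and Rrp12, which act in the nucleolus, rose by 1.93, 2.11, 1.97 and 1.72. Polr1a was not called (0.13, adjusted p = 0.0693). Of 29 translation initiation factors, 26 rose and 2 fell (median 1.02). Eif4ebp1, an inhibitor of the cap-binding factor, read 12.2, 12.2 and 13.3 without beads and 184, 157 and 168 with high beads (3.65), Eif5a rose by 1.92, and Eif4a2 and Eif4ebp2 changed by -0.92 and -0.45. Of 46 cytosolic ribosomal protein genes, 42 rose and 1 fell (median 0.72). Only Rpl15 (1.51) and Rplp0 (1.28) passed 2-fold, and many genes of this family may share reads with near-identical copies.

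All 35 respiratory chain genes rose, 18 past 2-fold (median 1.16), led by Uqcrq of complex III (2.15), with Atp5b of the ATP synthase at 1.87. All 34 proteasome and CCT chaperonin genes rose, 27 past 2-fold (median 1.32), led by the chaperonin subunit gene Tcp1 (2.11), with Psmb2 of the proteasome at 1.85. Of 20 mitochondrial import and chaperone genes, 18 rose and 1 fell (median 1.19), with the chaperone gene Hspd1 at 2.22 and C1qbp at 2.1. Of 23 endoplasmic reticulum chaperone genes, 18 rose and 3 fell (median 1.13). Sdf2l1, the isomerase gene P4hb and Xbp1, the factor of the unfolded protein response, rose by 2.6, 2.23 and 1.94, while Ern1, the sensor upstream of Xbp1, and Dnajb9 fell by 1.03 and 0.73.

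The metallothionein genes rose far more than the rest of their list. Mt1 (chromosome 8, 94178883 to 94180327), a small protein that binds zinc and copper, read 2.94, 3.36 and 4.43 without beads and 114, 74.6 and 111 with high beads (log2 change 4.45, SE 0.15, adjusted p = 1.86e-13). Mt2, its neighbour, read 2.21, 2.07 and 1.56 without beads and 67.7, 39.6 and 66.2 with high beads (4.29). High-bead replicate 2 was the lowest of its group in both genes and still lay above every library without beads. Of 16 genes of metallothioneins and zinc transport, 10 rose and 3 fell (median 0.25), with the zinc importer gene Slc39a8 at 1.64 and the exporter gene Slc30a1 at -1.07. Mtf1, the metal-sensing factor, was not called (-0.04, adjusted p = 0.384).

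The Mt1 promoter (chr8:94178839-94179138, plus strand, GRCm38.p6, RefSeq) is shown for the core of the metal response element, TGCACNC or TGCGCNC, with 3 matches on either strand in capitals. Most of this window lies inside the span given above for the gene, so it was not set on the first base of that span.
Mt1: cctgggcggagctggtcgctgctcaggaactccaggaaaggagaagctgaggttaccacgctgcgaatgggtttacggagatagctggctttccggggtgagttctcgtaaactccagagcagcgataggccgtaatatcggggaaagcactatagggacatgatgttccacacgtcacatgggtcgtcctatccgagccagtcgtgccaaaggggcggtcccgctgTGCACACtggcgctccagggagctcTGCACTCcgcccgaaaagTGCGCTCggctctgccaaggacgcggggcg
Either word was found in 7 of the 13 promoters on hand for the list (53.8%), against 39.9% of tested genes and 28.2% of all genes.

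Enzymes that write and erase DNA and histone methylation moved both ways, as did all genes tested (45.2% higher and 39.3% lower). Of 21 genes, 11 rose and 8 fell, 7 and 4 past 2-fold (median 0.12). Beside Uhrf1, the remodeller gene Hells, the maintenance methyltransferase gene Dnmt1 and Ezh2, which methylates histone H3 at lysine 27, rose by 3.38, 1.94 and 2.44. Ezh1, the form of that enzyme in resting cells, went from 31.2, 32.5 and 31.5 to 8.59, 8.66 and 8.84 (-1.75). Kmt2d, Kmt2a and Kdm6b fell by 1.94, 1.52 and 1.24.

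Interferon-stimulated genes held nearly as many rises as falls, beside 45.2% higher and 39.3% lower over all genes tested. Of 39 tested genes out of 44, 17 rose and 18 fell, 5 and 5 past 2-fold, with a median of -0.23. Ly6a, which encodes Sca-1, read 75.7, 63.8 and 65.3 without beads and 789, 876 and 899 with high beads (3.63). Gbp2, a GTPase induced by interferon gamma, and Isg15 rose by 2.76 and 1.63, while Ifit2, Ifi204 and Rtp4 fell by 2.12, 1.72 and 1.34. Of 22 S100, annexin and galectin genes, 9 rose and 11 fell (median -0.10). Anxa2, the intermediate filament gene Vim and Lgals1 rose by 2.59, 2.56 and 1.95. S100a4 went from 71.5, 59.3 and 50.5 to 5.14, 4.63 and 3.07 (-3.55), Lgals3 changed by -2.68 and Anxa1 by -2.09. Macrophages and neutrophils also express genes of these lists. Myeloid marker sums fell as given above, neutrophil marker sums were 20.4, 33.8 and 34.6 without beads and 3.52, 4.26 and 6.5 with high beads, and the part of these cells in these falls was not tested.

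The low bead dose gave a further set of values. Both bead comparisons share the libraries without beads, so their values are only set side by side. Median changes at the low and the high dose were 3.07 and 3.54 for mitosis genes, 1.85 and 2.43 for replication genes, 1.00 and 1.93 for glycolysis, 0.61 and 1.40 for cholesterol and fatty acid synthesis, 1.26 and 2.95 for Th2 genes, and -0.58 and -1.21 for naive genes. Mki67 read 75.1, 94.7 and 94.2 at the low dose, near its high-dose level, while Il24 read 2.73, 6.1 and 3.56 and Tgm2 11, 10.9 and 10.6. Ms4a4b read 432, 451 and 454 at the low dose, close to its level without beads. Interferon-stimulated genes had medians of 0.53 at the low dose and -0.23 at the high dose, but the latter was 0.43 with a filter of nRPKM at least 5 and -0.069 without high-bead replicate 1.

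The same bead comparison was made in the Control Ig arm, which shares no library with this one. There 10767 genes were called (82.3%), and 2013 passed 2-fold (15.4%), 1269 higher (9.71%) and 744 lower (5.69%). Across the 13075 genes the log2 changes of the arms correlated at a Pearson r of 0.973 and a Spearman rho of 0.969, as a description over genes that share libraries and are not independent. Of the genes past 2-fold, 1171 rose in both arms (75.2% of those under anti-Ox40 and 92.3% of those under Control Ig), 712 fell in both (69.8% and 95.7%), and 0 moved in opposite directions.

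The change under anti-Ox40 differed from that under Control Ig for 1451 genes (11.1%) by the interaction term of the limma model, with a positive difference for 837 (6.4%) and a negative one for 614 (4.7%). At an unadjusted p under 0.05 it was 3490. Of the 1557 genes that rose past 2-fold under anti-Ox40, 272 had a positive difference and 73 a negative one, and of the 1020 that fell, 217 had a negative difference and 3 a positive one. The count changed with the libraries fitted, and the cause was not tested. It was 602 without anti-Ox40 high-bead replicate 1, 630 and 732 without Control Ig high-bead replicates 3 and 2, and 957, 939 and 879 without Control Ig no-bead replicates 1, 2 and 3. Leaving out replicate 3 of all 6 groups, the libraries with the most B cell RNA, left 7 genes, an alternative chosen after the data were seen, with 2527 at an unadjusted p under 0.05. Those 7, named after their values were seen, were Batf3, Bcl2l14, Btla, Lta and Gm561 with a positive difference and Cblb and LOC102635590 with a negative one.

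**Figure D5:**
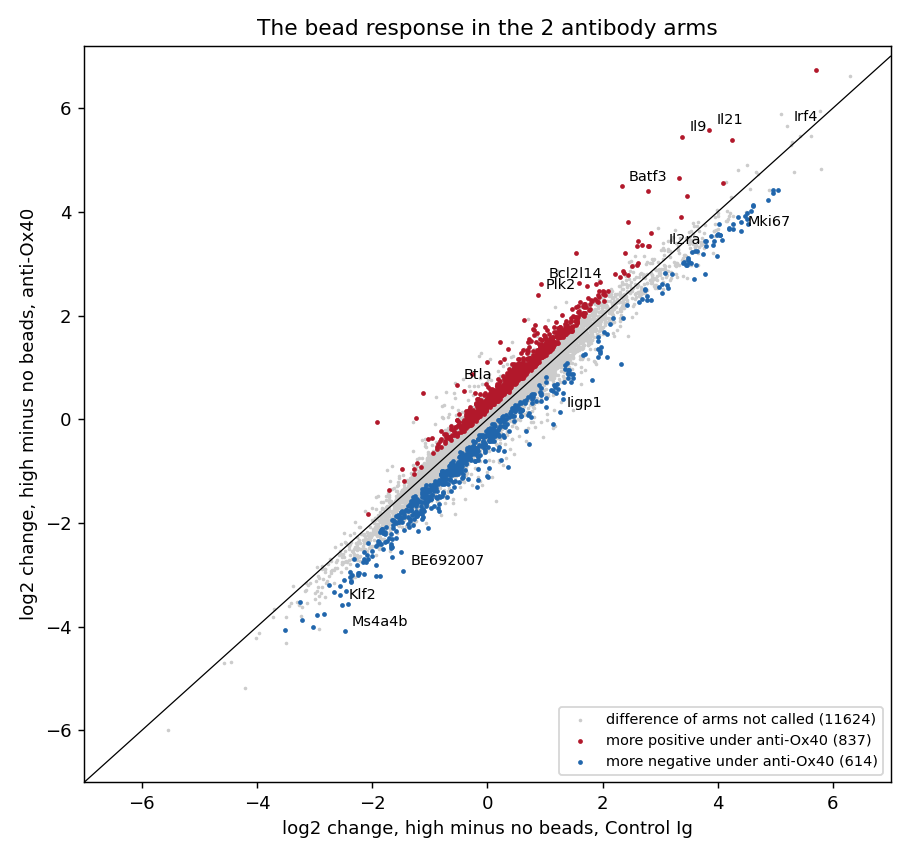
Log2 change with high beads under anti-Ox40 (vertical axis) against that under Control Ig (horizontal axis) for each tested gene, with genes whose changes differ coloured by direction. Most genes lie along the diagonal (Pearson r 0.973), with Batf3, Il9 and Il21 above it and Ms4a4b below.

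Positive differences were led by Batf3, which rose by 4.49 under anti-Ox40 and by 2.33 under Control Ig, a difference of 2.16 (SE 0.20, adjusted p = 8.76e-05). Its Control Ig libraries read 0.616, 0.75 and 0.53 without beads and 8.06, 6.61 and 6.98 with high beads, below all 3 high-bead libraries under anti-Ox40. Il9 rose by 5.45 and 3.38 (difference 2.07, SE 0.58, adjusted p = 0.0339). That call was weak: it was lost in 9 of 12 fits without 1 library (adjusted p 0.00968 to 0.100), and with a pseudocount of 0.1 the difference was 0.61 (adjusted p = 0.680). Il21 rose by 5.59 and 3.85 (difference 1.74, SE 0.25, adjusted p = 0.002), with Control Ig high-bead levels of 24.6, 21.5 and 14.8. These cytokine genes thus reached higher levels under anti-Ox40 in each high-bead library than in any high-bead library of Control Ig. Bcl2l14, a BCL2 family gene, rose from 0.068, 0.088 and 0.06 to 6.07, 5.68 and 4.96 under anti-Ox40, with a difference of 1.68. The differences for Enpp2, which makes lysophosphatidic acid, Stra6, the retinol transporter, and the kinase gene Plk2 were 1.67, 1.63 and 1.52. Atf3, a stress-induced factor, had a difference of 1.37.

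Among negative differences, Ms4a4b fell by 4.09 under anti-Ox40 and changed by -2.48 under Control Ig (difference -1.61, SE 0.45, adjusted p = 0.0341). It too was lost in 9 of 12 fits without 1 library, with differences from -2.12 to -1.28. BE692007 and Ms4a6c had differences of -1.46 and -1.16, and Tmem71, Wscd2 and Nsg2 of -1.14, -1.13 and -1.12. Scin, an actin-severing protein, changed by -1.1 under anti-Ox40 and by -0.01 under Control Ig. Iigp1, an interferon-induced GTPase, was not called under anti-Ox40 (0.14) and changed by 1.25 under Control Ig (difference -1.11). Klf2 and S1pr1 fell further under anti-Ox40, with differences of -1.05 and -0.84.

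Of the receptors, Tnfrsf4 changed by 1.89 and 1.87 in the arms (difference 0.02, SE 0.11, adjusted p = 0.921) and Il2ra by 3.27 and 3.02 (difference 0.25, adjusted p = 0.139). Neither difference was called. Cd69 rose by 1.49 and 0.71 (difference 0.78, adjusted p = 0.00296), Lif by 4.3 and 3.47 (0.83) and Myc by 1.45 and 1.02 (0.44). Mki67 rose by 3.63 and 4.4, a difference of -0.77. Its Control Ig libraries read 3.94, 4.81 and 4.38 without beads and 102, 124 and 111 with high beads. The levels without beads were thus the lower ones in that arm, while the high-bead levels of the arms overlapped. Top2a behaved alike, at 6.74, 7.75 and 7.11 and 253, 279 and 280.3 under Control Ig (difference -0.63).

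By list, differences of the arms were called in a positive direction for 23 of 34 ribosome biogenesis genes (median difference 0.41), 18 of 29 amino acid and one-carbon genes (0.38), 16 of 29 translation initiation factors (0.29) and 9 of 20 mitochondrial import genes (0.30), and for 9 of 30 cytokine genes (0.05). The background was 6.4% positive and 4.7% negative. Negative differences were called for 18 of 39 mitosis genes (-0.34), 10 of 34 naive genes (-0.24) and 9 of 25 genes of the T cell receptor complex and proximal signalling (-0.17). With 1 library left out at a time these counts ranged from 11 to 26, 9 to 21, 6 to 17, 1 to 10 and 4 to 8 for the positive lists and from 6 to 18, 6 to 12 and 2 to 10 for the negative ones. Without replicate 3 of all groups they were 0, other than 1 for cytokines, while the median differences were 0.47, 0.38, 0.29, 0.37 and 0.13 for the positive lists, the last for cytokines, and -0.32, -0.23 and -0.13 for the negative ones. Fewer samples were used in that setting, and the cause of its low counts was not tested. With all libraries, calls in the other direction were 1 for cytokines and 1 for the T cell receptor list. The lists given here were picked from the 37, and others also exceeded the background. Th2 genes had 5 of 16 positive and 0 negative, and interferon-stimulated genes 9 of 39 negative and 0 positive.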

How the data were processed

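RNA was sequenced from 18 cultures of CD4 T cells, 3 in each of 6 groups, per the labels' protocols, with 100 to 500 ng of RNA and 10 PCR cycles for a library. The authors deposited 1 table of nRPKM values, that is RPKM with an added normalization whose method is not given in the sources used here. Per the submitters' processing notes, the aligner was GSNAP and the build GRCm38, with no version, and nothing used here states the annotation or how reads were counted. Of the 36528 entries of the deposited table, 6 had no symbol, 27 had a date as symbol and 6 shared a symbol with another entry. Depth was worked out from microRNA genes of known length, whose values of 1 to 5 reads were whole multiples of 1 unit within 0.1 read for 100% of values. Depth gives counting error only.

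Genes that reached an nRPKM of 1 in 3 or more libraries were taken to log2(nRPKM + 1), which understates the change of low genes, and fitted with limma 3.58.1 in R 4.3.3 (6 group means, 12 residual degrees of freedom, eBayes with trend). Calls used 2-sided Benjamini-Hochberg adjusted p under 0.05 over all 13075 genes, the 2-fold test used limma's treat, and the difference between arms used the interaction contrast. RefSeq on GRCm38.p6 gave positions for 12009 genes (91.8%) and promoters. The code was tested on simulated data.

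The named genes were the 15 largest rises and 15 largest falls past 2-fold without overlap, the 8 largest differences between arms each way, and, in each of 50 lists (37 themes, 11 cell types, 2 of RNA quality), up to 6 members in the direction of most, 4 in the other and 3 not called, besides a fixed set. Symbols starting with Gm and a digit, LOC, Mir, Snor or Scarna, or ending in Rik or -ps, were passed over, and 2 named genes are not reported here. The members, lists and tests were chosen with earlier results of these data known. Alternatives were pseudocounts of 0.1 and 0.5, filters, scaling, fits without trend or of only the groups compared, a replicate block, and leaving out libraries.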

Additional observations from a re-analysis of the deposited data

Results flagged for a closer look

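The bead response differed between the antibody arms, by the interaction contrast of the limma model at an adjusted p under 0.05, for 1451 genes (11.1% of those tested). Among the named genes the response was more positive under anti-Ox40, in log2 units, for Batf3 (2.16), Il9 (2.07), Il21 (1.74), Bcl2l14 (1.68), Enpp2 (1.67), Stra6 (1.63), Plk2 (1.52), Atf3 (1.37), Lif (0.83), Cd69 (0.78) and Myc (0.44). It was more negative for Ms4a4b (-1.61), BE692007 (-1.46), Ms4a6c (-1.16), Tmem71 (-1.14), Wscd2 (-1.13), Nsg2 (-1.12), Iigp1 (-1.11), Scin (-1.08) and Mki67 (-0.77). With 1 library left out the count of genes ranged from 602 to 1743. Without replicate 3 of all groups, where fewer samples were fitted, it was 7. The count thus changed with the libraries fitted, and the cause was not tested. The calls for Il9 and Ms4a4b were each lost in 9 of 12 fits without 1 library.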

How the results depend on the processing

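In the comparison of high with no beads, the number of genes called, the number past 2-fold and the number in each direction stayed within 1.5 times of the values given, other than falls past 2-fold, which numbered 1583 with a pseudocount of 0.1 against 1020. The share of rises among genes past 2-fold was 60.4%, and 53.8% after median centring and 51.5% after quantile normalization, which moved the median of all genes by 0.10. Among all genes called, the share of rises was 53.5%, and 49.6% after median centring and 48.7% after quantile normalization. Falls then outnumbered rises, at 5597 against 5509 and at 5587 against 5307. Of 253 named genes, 227 kept their direction and their side of the threshold under every alternative. Calls were lost for Ctla4 as given above, for Actb (0.126) and Ccr7 (0.159) under quantile normalization, and for Pdk1 (-0.307) without replicate 3 of all groups. Of 82 genes examined for the difference between arms, 6 kept direction and call under every alternative, 45 when the fit without replicate 3 of all groups is set aside, and none changed direction. List medians changed sign with a filter of nRPKM at least 5 for interferon-stimulated genes (0.43), Th1 and cytotoxic genes (0.31) and dendritic cell markers (0.56), where fewer genes were tested, and under quantile normalization for NF-kB genes (-0.045). Without high-bead replicate 3 it changed sign for Th1 and cytotoxic genes (0.070) and nuclear RNAs (0.0026), and without no-bead replicate 1 for nuclear RNAs (0.012).

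Some single genes had a change of the other sign. Under median centring these were Car9 (-0.014), Elovl5 (-0.036), Il1rl1 (-0.060), Itgal (-0.0077), Jund (-0.044), Mcl1 (-0.033) and Trib3 (-0.025). Under quantile normalization these were Ctla4 (-0.22), Elovl5 (-0.30), Itgal (-0.38), Jund (-0.43), Mcl1 (-0.43), Polr1a (-0.066) and Trib3 (-0.32), and of these Elovl5, Itgal, Jund, Mcl1 and Trib3 were called as lower in that setting (adjusted p 1.4e-06 to 0.00144). With libraries left out, Cd274 ranged from -0.095 to 0.037, Elovl5 from -0.00029 to 0.11, Il1rl1 from -0.058 to 0.15, Jund from -0.00031 to 0.068, Sh2d2a from -0.021 to 0.030 and Traf2 from -0.12 to 0.033. All of these except Ctla4 were not called in the fit reported. The cause was not tested.

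The difference between the arms depended most on the setting. Without a filter 966 genes were called, 391 of them negative, where more genes were tested. With 1 library left out the count ranged from 602 to 1743, from 344 to 944 for positive and from 258 to 799 for negative differences. Without replicate 3 of all groups it was 7, with 5 positive and 2 negative, where fewer samples were tested. In that setting the difference was 2.22 for Batf3 and 1.503 for Il21 (adjusted p = 0.0652). Other differences moved either way from those given. Those of Ms4a4b (-1.26), Plk2 (1.25) and Scin (-0.82) were smaller in size, and those of Stra6 (1.75) and BE692007 (-1.55) larger.

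Replicate numbers are names in accession order. Same-numbered libraries of the compared groups deviated together with correlations of 0.064, 0.097 and 0.052, and 18 of 18 libraries correlated best with their own number in another group. With the replicate block 11169 genes were called and 2632 passed 2-fold, and the difference between arms was called for 1789 genes, 964 positive and 825 negative. Depth of 26.4 reads per nRPKM and kilobase in the shallowest library limits genes near an nRPKM of 1.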
